A study of Arabidopsis thaliana with 4 samples.

Results

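The genes described here are 4 little-studied guard cell genes, AT1G04800, AT4G24340, AT5G25840 and AT1G55210, out of 33602 genes in the deposited expression table. They were chosen by identifier because their transcript levels were among the largest falls between the 2 genotypes of the study, so their levels and differences are given as a description and carry no test. FAMA-LGK guard cells came from fama-1 seedlings, mutant in the guard cell transcription factor FAMA, that carry FAMA-LGK, a FAMA protein with a changed RBR1-binding motif (RBR1 is the plant retinoblastoma-related protein), under the FAMA promoter; wild type (WT) guard cells came from seedlings labelled wild type, with no allele or agent given. Both genotypes were Arabidopsis thaliana seedlings at 12 days post germination, grown flat on 1/2MS under 16 hours of light and 8 hours of dark, whose aerial tissue was protoplasted and whose guard cells were sorted by fluorescence. Each genotype had 2 libraries, and the labels name neither the transgenic line nor the sort marker, nor separate plantings, so a p-value here reflects spread between libraries that may be technical. The labels also give 1 value of a series tag to both WT libraries and another to both FAMA-LGK libraries, so whatever that tag marks cannot be told apart from genotype.

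Guard cells are the paired epidermal cells that open and close the stomatal pore by changing their turgor, with ion channels and proton pumps in the plasma membrane and specialised, unevenly thickened walls. FAMA is the bHLH factor that ends divisions in the stomatal lineage and starts guard cell differentiation. None of the 4 genes has a name in the reference annotation, which knows them by family only: a glycine-rich protein (AT1G04800), a Phosphorylase superfamily protein (AT4G24340), a protein with the domain of unknown function DUF1677 (AT5G25840) and a dirigent-like protein (AT1G55210). Glycine-rich proteins are a mixed group that includes structural proteins of the cell wall and RNA-binding proteins. The phosphorylase superfamily holds enzymes that cleave nucleosides, and in poplar it also includes bark storage proteins. Dirigent proteins steer the coupling of phenolic radicals in lignan and lignin formation; the founding member was found in Forsythia.

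Sequences are from the RefSeq copy of TAIR10.1, with its own gene starts; the submitters named TAIR10. To show the product that gave AT1G04800 its name, the 150 bases of its single exon richest in glycine codons are printed first, with glycine codons in capitals, in reading frame from codon 57 to codon 106.
AT1G04800, chr1:1348920-1349069, minus strand: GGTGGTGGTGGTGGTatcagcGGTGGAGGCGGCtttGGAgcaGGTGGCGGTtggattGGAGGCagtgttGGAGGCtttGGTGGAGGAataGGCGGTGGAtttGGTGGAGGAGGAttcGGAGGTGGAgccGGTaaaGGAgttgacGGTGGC
Of these 50 codons 34 encode glycine. Over the whole predicted protein of 200 residues glycine made up 44.5%, the 15th highest share of 26616 predicted proteins, whose median was 6.16%. The codon GGA was used 47 times, GGT 27 times, GGC 14 times and GGG 1 time.

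The 250 bases before the annotated starts of AT1G04800, AT4G24340 and AT5G25840 are shown next, 5′ to 3′ on the strand of the gene. The genes were picked for being low in FAMA-LGK, so that shared fall says nothing on shared control. Capitals mark the E-box letters CANNTG, the core bound by bHLH factors as a class.
AT1G04800, chr1:1349479-1349728, minus strand: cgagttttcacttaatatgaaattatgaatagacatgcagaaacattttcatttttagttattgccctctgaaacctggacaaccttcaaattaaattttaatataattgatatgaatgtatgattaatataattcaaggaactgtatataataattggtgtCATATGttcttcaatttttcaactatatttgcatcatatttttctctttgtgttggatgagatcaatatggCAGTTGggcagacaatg
AT4G24340, chr4:12607121-12607370, plus strand: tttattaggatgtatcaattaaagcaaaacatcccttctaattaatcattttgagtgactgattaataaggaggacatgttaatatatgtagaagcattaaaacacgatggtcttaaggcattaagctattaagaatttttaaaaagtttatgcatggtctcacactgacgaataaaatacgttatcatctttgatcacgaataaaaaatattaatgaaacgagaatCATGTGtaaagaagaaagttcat
AT5G25840, chr5:9011619-9011868, minus strand: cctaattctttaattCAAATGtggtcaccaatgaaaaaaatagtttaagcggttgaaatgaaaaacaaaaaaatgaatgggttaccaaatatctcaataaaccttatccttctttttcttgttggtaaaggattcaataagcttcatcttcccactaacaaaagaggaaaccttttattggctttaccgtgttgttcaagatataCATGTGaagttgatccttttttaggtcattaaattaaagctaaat
E-box letters, which read the same on both strands, occurred 2 times before AT1G04800, 1 time before AT4G24340 and 2 times before AT5G25840, and at least once in 55.3% of all 26711 windows of this length. The nearest to the start were CAGTTG at 17 bases before AT1G04800, CATGTG at 23 bases before AT4G24340 and CATGTG at 45 bases before AT5G25840, counted to the first base of the match. AAAG, the core of Dof factor sites, was counted on both strands 1, 5 and 8 times in the same order of genes, against a median of 4 and a presence in 98.0% of windows. ACGTG, the core of abscisic acid response elements, occurred in none of the 3 windows and in 23.1% of all, CACGTG, which contains it, in none and in 6.58%, and TATAAA in none and in 47.7%. These are matches of letters in a short window and not measured sites.

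The deposited values are TPM (transcript abundance per fixed library total), which scale reads for gene length and to 1 total per library. Nuclear ribosomal RNA took 33.0% and 22.3% of that total in FAMA-LGK replicates 1 and 2 and 24.2% and 27.1% in WT replicates 1 and 2. Organelle genes took 29.8% and 30.8% in FAMA-LGK and 27.8% and 25.3% in WT. Larger shares of these lower the TPM of all other genes in that library. Reads of nuclear genes other than ribosomal RNA were estimated at 6626167 and 8352208 in FAMA-LGK replicates 1 and 2 and at 8541521 and 9308278 in WT replicates 1 and 2. FAMA itself was at 94.3 and 81.2 TPM in the FAMA-LGK libraries and 66.1 and 65.6 TPM in the WT libraries, and a value per gene does not separate the fama-1 locus from the transgene. All 7 guard cell markers were above 0 in every library, at a summed 2893 and 2521 TPM in FAMA-LGK and 16740 and 12776 TPM in WT, a sum held mostly by TGG1. The 5 mesophyll markers summed to 369.6 and 422.0 TPM in FAMA-LGK and 458.6 and 510.3 TPM in WT, and the 4 epidermis markers to 315.4 and 263.6 TPM in FAMA-LGK and 82.9 and 56.8 TPM in WT. The 3 trichome markers, of which 2 were at 0 in at least 1 library, summed to 0.451 and 0.973 TPM in FAMA-LGK and 2.20 and 1.05 TPM in WT, and the 3 vascular markers, likewise with 2 at 0 somewhere, to at most 0.677 TPM in any library. The part of other cell types in the results below was not tested, and in sorted bulk cells fewer cells of a type and less RNA per cell cannot be told apart.

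AT1G04800 was one of the most abundant nuclear transcripts of WT guard cells. It was at 93.7 and 71.4 TPM in the FAMA-LGK libraries, against 5100 and 3863 TPM in the WT libraries. The groups lay far apart, with the lower WT library 41.2 times the higher FAMA-LGK library, while the 2 libraries differed 1.31 times in FAMA-LGK and 1.32 times in WT. By mean TPM it ranked 766th of the nuclear genes outside ribosomal RNA in FAMA-LGK and 7th in WT, where TGG1, a myrosinase of the glucosinolate defence system, ranked first. By single library AT1G04800 ranked 611th and 978th in FAMA-LGK and 4th and 13th in WT. Its mean of 82.5 ± 15.7 TPM in FAMA-LGK was 1.84% of the 4482 ± 874.7 TPM in WT (SD, n = 2 libraries each). The transcript made up 0.0252% and 0.0153% of nuclear TPM in FAMA-LGK and 1.06% and 0.813% in WT. About 815 and 624 reads lay behind the FAMA-LGK values, and at 82.5 TPM the transcript there still stood above the WT mean of AT1G55210.

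AT1G04800 lies on the minus strand of chromosome 1, and 40.6% of its exon is shared with AT1G04790, a RING/U-box protein gene on the opposite strand. Whether counting used strand is not stated, so reads from the overlap cannot be assigned to either gene with certainty. AT1G04790 was at 6.80 and 12.4 TPM in FAMA-LGK and 8.08 and 10.3 TPM in WT, and was not called (log2 difference 0.01, SE 0.32, limma adjusted p = 0.984). A search with the protein against all predicted proteins found no other gene at an E-value of 1e-05.

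AT4G24340, the Phosphorylase superfamily gene, was at 3.67 and 5.74 TPM in the FAMA-LGK libraries and at 297.2 and 238.7 TPM in the WT libraries. The lower WT library was 41.6 times the higher FAMA-LGK library. Its mean was 4.71 ± 1.46 TPM in FAMA-LGK, which is 1.76% of the 268.0 ± 41.3 TPM in WT (SD, n = 2 libraries each). It ranked 9028th in FAMA-LGK and 220th in WT among nuclear genes, and an estimated 44 and 69 reads remained in FAMA-LGK, against 3623 and 3306 in WT. The gene has 6 exons and a predicted protein of 338 residues.

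AT5G25840, the DUF1677 gene, was the least even of the 4 in FAMA-LGK, at 0.867 TPM in replicate 1 and 6.78 TPM in replicate 2, against 148.5 and 160.8 TPM in the WT libraries. The FAMA-LGK libraries differed 7.83 times and the WT libraries 1.08 times. Behind the FAMA-LGK values lay an estimated 7 reads (95% exact Poisson interval 2.81 to 14.4) and 55 reads (41.4 to 71.6), and these intervals do not overlap. Both were below both WT values all the same, by 21.9 times at the closest. FAMA-LGK replicate 1 kept 0.560% of the WT mean and replicate 2 kept 4.39%. The mean of 3.83 ± 4.18 TPM in FAMA-LGK has an SD larger than itself, beside 154.6 ± 8.71 TPM in WT (SD, n = 2 libraries each). Its log2(TPM + 1) difference was -4.32 without FAMA-LGK replicate 1 and -6.38 without FAMA-LGK replicate 2.

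AT1G55210, the dirigent-like gene, was the lowest of the 4 in both genotypes, at 1.25 and 0.936 TPM in the FAMA-LGK libraries and 60.0 and 55.5 TPM in the WT libraries. The lower WT library was 44.3 times the higher FAMA-LGK library. It kept 1.89% of its WT mean, at 1.09 ± 0.224 TPM in FAMA-LGK and 57.8 ± 3.16 TPM in WT (SD, n = 2 libraries each), and ranked 14677th in FAMA-LGK and 1192nd in WT. The FAMA-LGK values rest on few reads: an estimated 12 and 9 at the gene length nearest the annotated 1035 bases, or 4 and 3 as the smallest whole numbers that fit, since ratios between libraries fix read numbers only up to a common factor. Read numbers count reads, not molecules, so these intervals and estimates cover counting error only.

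**Figure D1:**
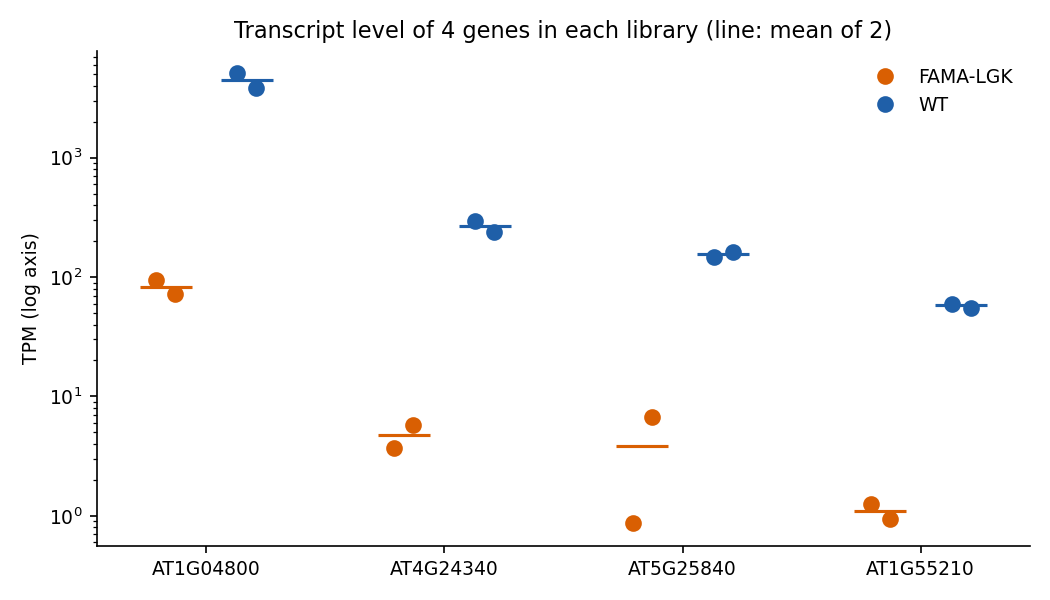
TPM (log axis) of the 4 genes in each library, FAMA-LGK in orange and WT in blue, with a line at the mean of 2 libraries. The groups do not overlap for any of the 4 genes, which follows from picking genes with large falls. Among all 15143 tested genes, 25.7% had both FAMA-LGK libraries below both WT libraries. The 2 FAMA-LGK values of AT5G25840 (0.867 and 6.78 TPM) lie farthest apart.

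The 4 genes had WT means between 57.8 and 4482 TPM, and kept between 1.76% and 2.47% of them in FAMA-LGK by the mean of 2 libraries. By single library the range was wider, since AT5G25840 kept 0.560% in FAMA-LGK replicate 1 and 4.39% in replicate 2, and low shares follow from how the genes were chosen. Together the 4 transcripts held 0.0268% and 0.0181% of nuclear TPM in FAMA-LGK and 1.17% and 0.908% in WT, nearly all of it AT1G04800. In the comparison over all genes, 25.7% of the 15143 tested genes, those averaging 1 TPM or more, had both FAMA-LGK libraries below both WT libraries, and 6.14% were called lower by limma; the 4 genes were picked from that side of that comparison, so nothing is read from their own place in it.

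On the log2(TPM + 1) scale, FAMA-LGK minus WT, the differences were -5.74 for AT1G04800, -5.57 for AT4G24340, -5.35 for AT5G25840 and -4.81 for AT1G55210. These were the 2nd, 4th, 5th and 10th largest falls of the tested genes. TGG2, another myrosinase gene, stood before AT1G04800 at -6.62, and the gibberellin-regulated family gene GC1 (AT1G22690) after it at -5.60. RGLG3, annotated as a copine family protein, followed AT5G25840 at -5.28. SUS3, a sucrose synthase gene, stood just before AT1G55210 at -5.09, and the glutathione S-transferase gene GSTU8 came just after it, 11th, at -4.53. The order depended on the pseudocount: with 0.1 in place of 1 the 4 genes ranked 16th, 15th, 13th and 20th in the order given above, and as plain ratios of mean TPM 43rd, 42nd, 55th and 44th, since genes with few or no reads in FAMA-LGK then moved ahead of them.

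The plain ratios were also set beside those of other abundant transcripts, as a description of genes picked for large falls. Their places follow from that choice, and nothing is read from them. Of 1421 nuclear genes with at least 50 TPM in WT, the median gene kept 82.1% of its WT level in FAMA-LGK, 237 kept at most 50%, 28 at most 10% and 7 at most 2%. Those 7 were TGG2 at 0.929%, RAB7A at 1.16%, GC1 at 1.303%, RGLG3 at 1.39%, AT4G24340, AT1G04800 and AT1G55210, the first 4 named after their values were seen. AT5G25840 came 9th of the 1421, after ZPR3 at 2.46%. Of 55 nuclear genes at 1000 TPM or more in WT, AT1G04800 and TGG2 were the 2 at or under 2%. The minimum was set on WT alone, which favours genes higher in WT than in FAMA-LGK. With a minimum of 100 TPM the median share kept was 79.1%, and with 1000 TPM it was 71.8%. Over all 15143 tested genes the median log2 difference was 0.06.

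**Figure D2:**
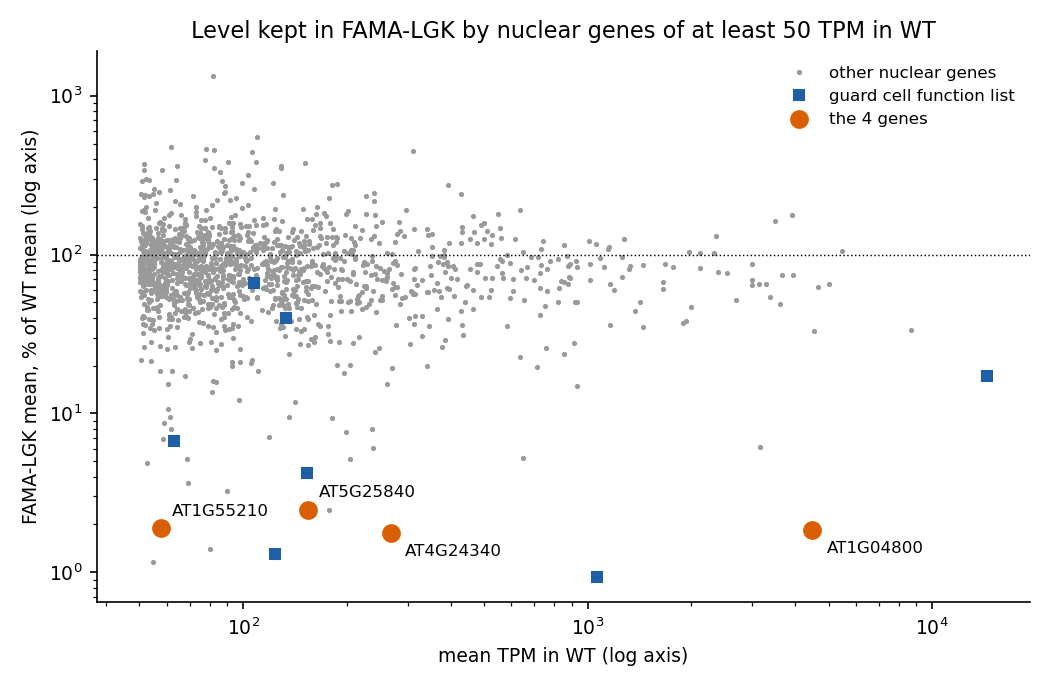
Mean TPM in WT (log axis) against the FAMA-LGK mean as a percentage of the WT mean (log axis) for 1421 nuclear genes of at least 50 TPM in WT; orange circles are the 4 genes, blue squares the guard cell function list, grey points the rest and the dotted line 100%. The 4 genes lie between 1.76% and 2.47% at WT levels from 57.8 to 4482 TPM, while the median gene of this set lies at 82.1%. The set was chosen by WT level, and the 4 genes by their falls.

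Each gene was set beside those most like it in level, by the largest difference in log2(TPM + 1) in any of the 4 libraries. AT1G55210 had the closest matches: RGLG3, within 0.53 log2 units in every library, then GORK, the outward potassium channel of guard cells, within 0.67, and GAMMA-TIP, a water channel of the vacuolar membrane, within 0.79. The added 1 narrows differences at such low levels. In FAMA-LGK replicate 1 GORK was at 0.436 TPM and AT1G55210 at 1.25 TPM. AT4G24340 was closest to ZPR3, an inhibitor of HD-ZIP III factors, within 0.92, and to the proton pump gene AHA5 (AT2G24520, annotated HA5), within 0.93, and then to AT2G35730, a heavy metal transport domain gene, within 1.11. For AT5G25840 they were GSTU8 within 1.03, GAMMA-TIP within 1.22 and AT4G24340 within 1.32. AT1G04800 had no close match. The nearest, ELI3-2, annotated as a cinnamyl alcohol dehydrogenase, was at 168.6 and 218.3 TPM in FAMA-LGK and 3412 and 2924 TPM in WT, up to 1.60 log2 units away, and GSTU25 and AT4G18280, a glycine-rich cell wall protein-like gene, were 2.47 units away.

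The relatives of the 4 genes, which did not choose them, were tested with limma on log2(TPM + 1) over all 15143 genes, of which 12.6% were called in either direction, 6.45% higher and 6.14% lower. Of 107 relatives by annotated family, meaning a shared word in the annotated product, 33 reached a mean of 1 TPM. Of these 6 were higher in FAMA-LGK, 5 were lower and 22 were not called. The 27 tested glycine-rich protein genes are tied to AT1G04800 by that word alone, since the protein search found no similar gene. No call in this comparison, here or below, survived the loss of a WT library: limma then called 0 genes, with 2675 below an unadjusted p of 0.05 when WT replicate 1 was left out and 2365 when WT replicate 2 was.

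Glycine-rich protein genes went both ways. Of 71 besides AT1G04800, 27 were tested, 5 rose, 4 fell and 18 were not called, with a median log2 difference of 0.19 beside 0.06 for all genes. The called share was 33.3%, beside 12.6% over all genes. AT4G18280, annotated as glycine-rich cell wall protein-like, lacks the matched words and is not counted. It was lower in FAMA-LGK, at 523.8 and 315.8 TPM against 1320 and 1000 TPM in WT. GRP23 (AT2G32690) fell to 32.7 and 35.4 TPM in FAMA-LGK, against 735.4 and 563.6 TPM in WT, with a log2 difference of -4.20 (SE 0.22, limma adjusted p = 7.9e-06). That left it at 5.24% of its WT level, against 1.84% for AT1G04800. GRP-3 (AT2G05520) rose to 365.0 and 385.9 TPM in FAMA-LGK, against 86.1 and 78.1 TPM in WT (log2 difference 2.18, limma adjusted p = 1.8e-04). Its short form GRP3S (AT2G05380), a separate gene, rose likewise to 121.3 and 123.3 TPM in FAMA-LGK, against 21.1 and 22.4 TPM in WT (log2 difference 2.44). Whether the 2 genes share reads was not tested. AT1G07135 (log2 difference 0.99), AT4G29020 (1.42) and AT4G27850 (1.73) were the other genes that rose, the last at 0.0544 and 0.144 TPM in WT. AT4G21620 (-1.59), AT4G22740 (-1.09) and AT3G04640 (-0.75) were the other genes that fell. AT4G22740 (-0.61 without it) and AT4G29020 (1.25) lost their calls without FAMA-LGK replicate 1, and AT3G04640 lost its call without either FAMA-LGK library (-0.71 and -0.78) and once organelle and ribosomal RNA genes were taken out (-0.56). With no filter on low values AT1G07135, AT4G27850, AT4G29020, AT4G22740 and AT3G04640 were not called, and without the variance trend AT1G07135, AT4G22740 and AT3G04640 were not. AT4G22740 was also not called with a pseudocount of 0.1. AT4G38710 and AT3G29075, the most abundant without a call, had log2 differences of 0.31 and -0.15.

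The phosphorylase superfamily holds the closest relative of any of the 4 genes. AT4G24350 lies next to AT4G24340 on the same strand; its protein is 85.8% identical over 337 aligned residues, and the transcripts are 90.4% identical over a stretch of 701 bases, so reads may be split between the pair and the value of each is uncertain to that extent. AT4G24350 fell to 16.95 and 14.6 TPM in FAMA-LGK, against 37.0 and 34.9 TPM in WT (log2 difference -1.14, SE 0.22, limma adjusted p = 0.0098). The neighbour thus kept 43.8% of its WT level where AT4G24340 kept 1.76%, and it was the more abundant of the pair in FAMA-LGK and the less abundant in WT. MTN2 (AT4G34840), a methylthioadenosine nucleosidase, was at 2.07 and 1.70 TPM in FAMA-LGK and 2.21 and 3.50 TPM in WT, without a call, and AT4G28940, 37.8% identical to AT4G24340, was listed at 0 in every library.

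The DUF1677 family showed no call by limma among 3 of 8 relatives tested, and 0 at an unadjusted p under 0.05. Over all 15143 tested genes 12.6% were called and 4291 had an unadjusted p under 0.05, so 3 genes are too few to read a difference. AT1G79770, the relative most identical to AT5G25840 at 46.0% of the protein over 163 residues, lay between 0.924 and 2.14 TPM in all 4 libraries, with the genotypes overlapping. AT1G72510 was the most abundant relative, at 26.0 and 64.0 TPM in FAMA-LGK and 43.0 and 45.4 TPM in WT, with the higher FAMA-LGK value again in replicate 2. AT2G09970 had a log2 difference of -0.01. Another 5 relatives lay below the minimum, 4 of them at 0 in every library.

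Of 25 dirigent relatives of AT1G55210, 24 lay below the minimum, of which 14 were at 0 in every library and none exceeded 2.04 TPM. The 3 dirigent genes most identical over at least 170 residues, AT5G49040 (71.7% of the protein), AT3G13650 (66.8%) and AT3G13662 (64.4%), were at most at 0.592 TPM in any library, and AT1G55210 was the highest annotated dirigent transcript of WT guard cells. The single relative tested, AT1G22900 (46.7% identical), moved the other way: it rose to 10.3 and 20.8 TPM in FAMA-LGK, against 5.45 and 2.64 TPM in WT (log2 difference 1.69, SE 0.39, limma adjusted p = 0.0204). It lost its call without FAMA-LGK replicate 2, with a log2 difference of 1.22, and also with no filter on low values and without the variance trend. It was the highest annotated dirigent transcript of FAMA-LGK guard cells.

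**Figure D3:**
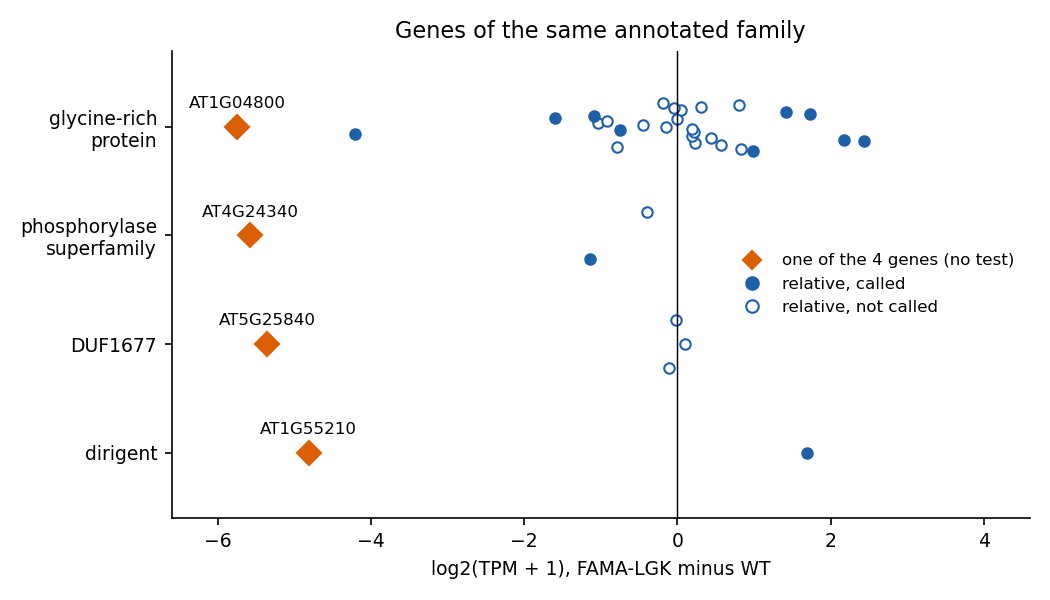
Difference in log2(TPM + 1), FAMA-LGK minus WT, for the 4 genes (orange diamonds, no test) and the tested genes of the same annotated family (blue circles, filled where called by limma). The 27 tested genes annotated as glycine-rich protein range from -4.20 to 2.44, and the single tested dirigent relative lies at 1.69 where AT1G55210 lies at -4.81.

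Genes along the chromosome were compared next, 5 annotated genes to each side. Of 40 neighbours 18 were tested, 0 rose and 2 fell, both beside AT4G24340. That is 11.1% of those tested, near the 12.6% called over all genes. These were AT4G24350, given above, and AT4G24330 on its other side, an uncharacterised gene with a DUF1682 domain, which fell to 7.78 and 6.41 TPM in FAMA-LGK, against 17.2 and 15.1 TPM in WT (log2 difference -1.09, SE 0.26, limma adjusted p = 0.0231). AT4G24330 was no longer called without FAMA-LGK replicate 2 (-0.97), nor once organelle and ribosomal RNA genes were taken out (-0.95). It was not called with no filter on low values or without the variance trend either. AT4G24310, named after its values were seen, had the largest difference of the tested neighbours, at 0.123 and 0.122 TPM in FAMA-LGK and 2.77 and 1.48 TPM in WT, and was not called (log2 difference -1.45, SE 0.43, limma adjusted p = 0.0575). With median-ratio scaling and with the replicate number as a block, 3 neighbours were called lower. The most abundant neighbours of AT4G24340 without a call were AT4G24380 (0.28) and AT4G24290 (0.14).

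AT1G04800 had the best measured surroundings, with 8 of 10 neighbours tested and 0 called by limma, against 2 at an unadjusted p under 0.05. Over all 15143 tested genes 12.6% were called and 4291 had an unadjusted limma p under 0.05. The 8 genes are too few to read a difference from those numbers. The log2 differences of the 8 lay between -0.61 and 0.52, beside -5.74 for AT1G04800 itself. AT1G04770, a tetratricopeptide repeat gene, was at 69.9 and 128.7 TPM in FAMA-LGK and 119.1 and 109.7 TPM in WT, and AT1G04780, an ankyrin repeat gene, at 41.8 and 44.1 TPM in FAMA-LGK and 55.5 and 45.1 TPM in WT. AT5G25840 and AT1G55210 lie among genes that were little expressed in these cells. Beside AT5G25840 only AT5G25820, an exostosin family gene, was tested (log2 difference -0.64, not called), and the other measured neighbours reached at most 0.266 TPM. Beside AT1G55210 the tested ones were PRA7 (-0.81) and HUB2, which ubiquitinates histone H2B (-0.41), neither called, and the other measured neighbours reached at most 1.45 TPM.

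**Figure D4:**
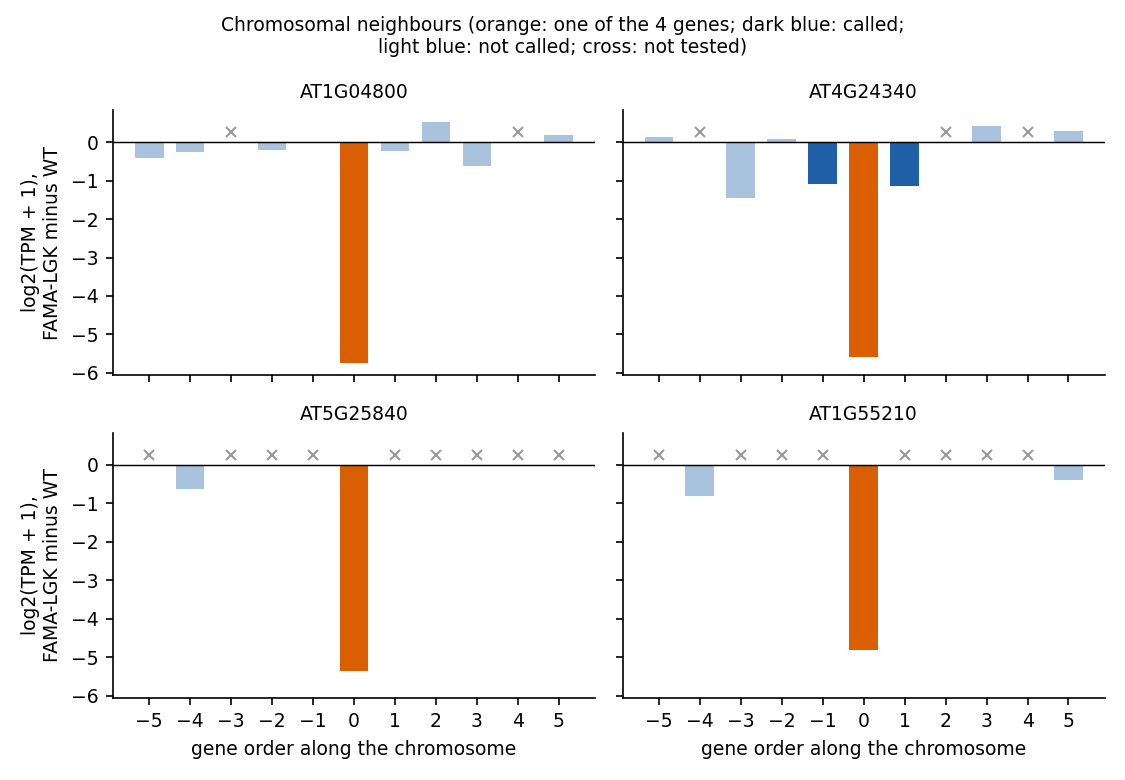
Difference in log2(TPM + 1), FAMA-LGK minus WT, for each gene (orange, position 0) and the 5 annotated genes to each side in order along the chromosome; dark blue bars were called by limma, light blue bars were not, and crosses mark genes not tested. The 2 called neighbours flank AT4G24340, at -1.09 and -1.14, AT4G24310 at -1.45 was not called, and the tested neighbours of the other 3 genes lie between -0.81 and 0.52.

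The predicted proteins of 3 of the 4 genes begin with a hydrophobic stretch. In the first 40 residues, the most hydrophobic window of 11 residues had a mean Kyte-Doolittle hydropathy of 2.86 in AT1G04800 (residues 8 to 18), 3.29 in AT4G24340 (residues 9 to 19) and 2.85 in AT1G55210 (residues 8 to 18), above 90.0%, 96.9% and 89.8% of 26616 predicted proteins. That of AT5G25840 was 1.44 at residues 30 to 40, above 65.6%, and the median of all was 1.05. Such stretches are common in secreted and membrane proteins; where these proteins go was not measured. The proteins of AT5G25840 and AT1G55210 have 173 and 187 residues, and AT4G24340 is the only 1 of the 4 genes with more than 1 exon in its longest transcript.

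Lists of the pathways that these families belong to were compared as well. Of 24 genes of the monolignol and lignan pathway, which makes the phenolic substrates on which dirigent proteins act, 15 were tested, 2 rose, 0 fell and 13 were not called (median log2 difference 0.49, beside 0.06 for all genes). The called share of 13.3% was near the 12.6% over all genes. The list held CAD4 and CAD5 but not ELI3-2, also annotated as a cinnamyl alcohol dehydrogenase. ELI3-2 was lower in FAMA-LGK, at 168.6 and 218.3 TPM against 3412 and 2924 TPM in WT, so the count does not cover every gene so annotated. CCOAOMT1, a methyltransferase of monolignol synthesis, rose to 17.7 and 12.6 TPM in FAMA-LGK, against 3.28 and 3.57 TPM in WT (log2 difference 1.85, SE 0.29, limma adjusted p = 0.00318). Of 10 nucleoside salvage genes 9 were tested and limma called 0, against 2 at an unadjusted p under 0.05 (median 0.31). Over all 15143 tested genes 12.6% were called and 4291 had an unadjusted p under 0.05, so 9 genes are too few to read a difference.

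The guard cell function list, whose genes had partly been seen to fall in these data before it was written, held 28 genes besides the 4. Of 27 tested, 14 were lower, 3 higher and 10 not called (median log2 difference -1.27, beside 0.06 for all genes). The called share was 63.0%, beside 12.6% over all genes. Since falls seen in these data partly shaped the list, nothing is read from that share. Its largest differences among called genes were those of TGG2, GC1 and SUS3, which kept 0.929%, 1.303% and 0.654% of the WT level. GORK kept 2.27% and AHA5 4.22%. The other 22 tested genes of the list kept at least 6.63%. MYB60, a MYB factor of guard cells, BCA4, a carbonic anhydrase, and CPK3, a calcium-dependent kinase, were the 3 that rose, named after their values were seen, to 347.3%, 382.9% and 181.9% of the WT level.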

How the data were processed

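The authors deposited 1 table of TPM values, computed after read counting with HTSeq-count, per the labels; CASAVA 1.8.2, Bowtie2, HTSeq and TAIR10 are named in the submitters' processing notes. The sources used here do not state gene lengths, strand use or how multi-mapping reads were treated. TAIR10.1 (RefSeq) supplied names, products and sequences, and matched 32835 of 33602 identifiers. The 4 genes and all lists were chosen with earlier results of these data known.

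Values were tested as log2(TPM + 1), FAMA-LGK minus WT, with limma 3.58.1 in R 4.3.3 (two-sided, moderated variance following a trend on mean level). Benjamini-Hochberg adjustment ran over the 15143 genes averaging 1 TPM or more, at a threshold of 0.05. This scale understates the change of low genes. With 2 libraries against 2, an exact test of 1 gene cannot go below p = 0.333, so none was used. The fit was tested on simulated data.

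Whole reads behind TPM were estimated from exact ratios between libraries. They came out whole in every library, within 0.005 reads, for 98.8% of 19262 genes with at least 3 values above 0. The common factor was set nearest to the annotated length. At a length of 1000 bases, 3 reads equal 0.271 to 0.313 TPM, depending on the library. Estimated totals with organelle and ribosomal RNA were too dependent on gene length to print.

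Families were taken from the words dirigent, phosphorylase superfamily, DUF1677 and glycine-rich protein in the annotated product. Named were all called relatives and neighbours, the 2 most abundant without a call, the 3 genes most like each of the 4, those next to them in the order of falls, and up to 3 called genes of each other list by largest difference. Similar genes were searched with BLAST 2.17.0 at an E-value of 1e-05; tables and figures used Python 3.11.15, numpy 2.4.6, pandas 2.3.3 and matplotlib 3.10.9. Alternatives were other pseudocounts, scalings, filters and variance models, each library left out, and the replicate number as a block. Some items are not reported here.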

Additional observations from a re-analysis of the deposited data

How the results depend on the processing

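The log2 differences of the 4 genes kept their direction under every pseudocount, scaling and left-out library tried. That outcome was fixed by choosing genes with large falls and is not support. Their lower WT library was 21.9 to 44.3 times the higher FAMA-LGK library. With a pseudocount of 5 the differences were -4.81 for AT4G24340, -4.26 for AT5G25840 and -3.36 for AT1G55210. AT1G55210 was at -5.61 with a pseudocount of 0.1 and at -5.07 once organelle and ribosomal RNA genes were taken out. That scaling moved the median of all genes to 0.24, against 0.06, and raised the genes called higher to 1504, which made 67.1% of calls higher, against 51.2%. Without FAMA-LGK replicate 2 the higher share was 36.3%. With no filter on low values 245 genes were called higher and 266 lower, and among the named lists 2 relatives were higher and 3 lower, 1 neighbour was lower and 1 monolignol gene higher. Without the variance trend 595 genes were lower, with 3 relatives lower and 1 monolignol gene higher. With each library left out in turn, genes called ranged between 0 and 816 higher and between 0 and 1074 lower. The same ranges were 0 to 5 higher and 0 to 6 lower for relatives, 0 to 2 lower for neighbours, 0 to 2 higher and 0 to 14 lower for the guard cell list and 0 to 1 higher for the monolignol list. Leaving out either WT library gave 0 in each case, and such a fit takes the spread of WT from the FAMA-LGK pair.

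Among relatives and neighbours without a call, AT1G72510 (-0.11), AT2G09970 (-0.01), AT3G29075 (-0.15) and AT1G04770 (-0.27) changed sign. Once organelle and ribosomal RNA genes were taken out the first 3 stood at 0.081, 0.14 and 0.048, and AT2G09970 was at 0.0005 with a pseudocount of 5. With libraries left out in turn they ranged from -0.74 to 0.52, from -0.39 to 0.36, from -0.31 to 0.024 and from -0.70 to 0.17. The cause of these changes was not tested.

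Replicate numbers did not pair the libraries by the labels, and deviations of same-numbered libraries correlated at 0.0782. With the replicate number as a block 1479 genes were called higher and 1365 lower. Few reads limit AT1G55210 and AT5G25840 in FAMA-LGK most.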
